A study of Homo sapiens with 19 samples.

Results

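The miRNAs hsa-miR-10395-3p, hsa-miR-455-3p and hsa-miR-1247-5p (written below without the species prefix) are 3 of the 1043 mature miRNAs listed in any library of the series. They were selected on their measured levels, because earlier results placed them higher in Caco-2 cells than in the RNA released by those cells. Levels in cell lysate against extracellular RNA are described here without a test, and tests are given only between extracellular groups and for the opposite arms of the same hairpins. Caco-2 is an established wild-type human colorectal epithelial cell line, and every group shares its culture at 80% confluence followed by 24 h in medium without serum or antibiotics. The 5 groups are the cell lysate (3 libraries), total extracellular RNA (total exRNA, 4), material sedimented at 40000 xg (P40, 4), material sedimented in a later step at 100000 xg (P100, 4) and what stayed in solution there (S100, 4). A precipitation step came ahead of Trizol for S100 and total exRNA, while lysate, P40 and P100 went into Trizol directly, so fraction and preparation cannot be told apart in comparisons across these 2 sets. S100 against total exRNA is free of this difference, and so is P100 against P40.

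A miRNA is cut from a hairpin precursor whose 5p and 3p arms each can yield a mature strand, and Argonaute proteins load one of them to repress messenger RNAs that pair with its seed. Outside cells, miRNAs are carried in vesicles, which high-speed spins collect, or in protein complexes, many of which stay in the supernatant. miR-455 is made within the collagen gene COL27A1 and is known from cartilage, where SOX9 drives its host gene. miR-1247 lies in DIO3OS, a non-coding RNA of the imprinted DLK1-DIO3 domain, and has been described as a regulator of SOX9 and as a growth-restraining miRNA in carcinomas.

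The mature sequences of both arms of miR-455 and of miR-1247 are shown because the arms of each hairpin differed in where they were found. They come from RefSeq on GRCh38.p14, run 5′ to 3′, and have the seed (bases 2 to 8) in capitals. Of the 3 members and their 3 opposite arms, 4 were matched by name.
miR-455-3p: gCAGUCCAugggcauauacac
miR-455-5p: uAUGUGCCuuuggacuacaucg
miR-1247-5p: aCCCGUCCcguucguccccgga
miR-1247-3p: cCCCGGGAacgucgagacuggagc

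The hairpins below carry both arms in capitals, the 5p arm first.
MIR455: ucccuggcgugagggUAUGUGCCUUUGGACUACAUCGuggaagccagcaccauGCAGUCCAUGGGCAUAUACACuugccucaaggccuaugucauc
MIR1247: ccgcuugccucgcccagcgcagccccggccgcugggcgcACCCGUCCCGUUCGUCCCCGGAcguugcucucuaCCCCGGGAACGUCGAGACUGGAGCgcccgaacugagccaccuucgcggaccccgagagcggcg

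MIR455 lies at chr9:114209434-114209529 on the plus strand. In GENCODE 29 it overlaps 3 transcripts of COL27A1 (chr9:114155560-114312511) and an exon of 0 of them, so it is intronic there. MIR1247 lies at chr14:101560287-101560422 on the minus strand, where it overlaps exons of all 9 DIO3OS transcripts present (chr14:101552221-101560431) and lies wholly within an exon of 2. None of the 4 mature strands shared its 7-base seed with another of the 2370 mature names in the table. The closest other strand was 5 edits away for miR-455-3p and 6 edits away for miR-1247-5p, so each was separable by sequence from its nearest relative. miR-455-3p had a G and C content of 52.4% and miR-1247-5p of 72.7%, against a median of 50.0% over the 199 matched miRNAs that passed the filter. miR-1247-5p stood at or above 90.5% of them in this respect. GGAG, a motif linked to loading into vesicles, was in neither of these members and in 10.1% of the matched miRNAs. GGCU, linked to the same process, was in neither member and in 14.1%. Of their opposite arms, miR-1247-3p held 1 GGAG and miR-455-5p none, and neither held GGCU. The motifs were searched on the mature strand alone.

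Library depth ranged from 34427 to 61622 counts in total exRNA, 37453 to 157051 in lysate, 10490 to 26096 in P40, 10017 to 27027 in P100 and 198878 to 225290 in S100. S100 replicate 1 held 48 counts, of which 1 was miR-1247-5p, and was left out. Levels below are in CPM, counts scaled to a common library total, with edgeR's TMM factors adjusting for abundant miRNAs, so they give a share of the counted miRNAs and not an amount. All 9 miRNAs listed as intestinal epithelial markers passed the filter on low counts. Summed, they held 4.69% to 6.03% of counts in lysate, 4.63% to 5.68% in total exRNA, 4.17% to 4.97% in P40, 3.56% to 5.02% in P100 and 2.85% to 3.24% in S100. In lysate miR-200c-3p made up 10988 of their 15175 counts, and single markers differed in direction between lysate and the extracellular groups. The 5 blood cell markers held 2 of 260500 lysate counts, with miR-451a, miR-144-3p and miR-223-3p at 0, and 0.00666% to 0.267% of counts in the extracellular libraries. The part of these in the levels below was not tested. Whether replicates came from separate cultures is not labelled, and p-values cover the spread among these libraries alone, which may be technical.

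miR-10395-3p had its highest shares in the cells. Its counts were 51, 138 and 71 in the lysate libraries, which is 1757, 1008 and 1129 CPM. Total exRNA held 1, 1, 1 and 0 counts, P40 held 2, 2, 2 and 1, P100 held 13, 2, 2 and 1, and S100 held 0 in each of its 3 libraries. Every lysate library lay above every extracellular one, and P100 replicate 1 (760 CPM) lay far above the other P100 libraries (85.0 to 100.2 CPM).

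At the pooled lysate share of 0.0998%, total exRNA would have held 183 counts of miR-10395-3p where 3 were seen (exact 95% Poisson interval 0.619 to 8.77). P40 would have held 69.9 where 7 were seen, P100 78.2 where 18 were seen, and S100 641 where 0 were seen. The pooled share in lysate was 61.1 times that in total exRNA (exact 95% counting interval 20.7 to 298). Against S100 it was at least 214-fold higher, taking 3 counts over the 642660 S100 counts as the floor and the lysate counts as exact. Mean levels in lysate were 13.8 times those of P40 and 5.04 times those of P100, or 14.3 times without P100 replicate 1. These intervals and floors cover counting error only, since reads carried no molecular identifiers, and they are no test, since these levels chose the member.

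miR-455-3p was also highest in the cells but was present in every library. In lysate it stood at 2343, 2806 and 2927 CPM (mean 2692 ± 308, SD, n = 3). The total exRNA libraries held 1854, 891, 1256 and 1343 CPM, the highest values outside the cells as a group (mean 1336 ± 397, n = 4). P40 held 1247, 318, 478 and 625 CPM, and P100 held 1344, 553, 476 and 902 CPM. P40 and P100 overlapped widely, and both overlapped total exRNA.

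S100 held 137, 144 and 114 CPM of miR-455-3p, and all 3 values lay below those of every other library. The mean in lysate was 2.01 times that of total exRNA, 4.04 times that of P40, 3.29 times that of P100 and 20.5 times that of S100. The 84 counts seen in S100 compare with 1569 at the pooled lysate share. With library size as the only scaling, lysate replicate 1 (1816 CPM) fell below total exRNA replicate 1 (1873 CPM).

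miR-1247-5p went against its description as retained in cells. It stood at 3067, 1527 and 1082 CPM in lysate and at 1785, 2786 and 2050 CPM in S100, so the 2 groups overlapped and the S100 mean (2207 ± 519, SD, n = 3) was above that of lysate (1892 ± 1042, n = 3). S100 held 1426 counts where the pooled lysate share would have given 903. The other extracellular groups were low, with 515, 102, 309 and 302 CPM in total exRNA, 873, 318, 512 and 0 CPM in P40, and 643, 978, 259 and 200.3 CPM in P100. Every lysate library lay above all of these 12 libraries, and so did every S100 library. The share of all miRNAs with the same separation of S100 was not counted.

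Lysate was thus the highest group for 2 of the 3 members, while for miR-1247-5p lysate and S100 overlapped and total exRNA, P40 and P100 overlapped each other at a lower level. Every lysate library lay above every extracellular library for miR-10395-3p and miR-455-3p, a pattern that 7.93% of the 227 miRNAs that passed the low-count filter showed. Against single groups this held for 3 members in total exRNA (22.9% of miRNAs), P40 (13.2%) and P100 (22.9%) and for 2 in S100 (30.8%). Over all extracellular libraries the count was 1 member, against 4.41% of miRNAs, with library size as the only scaling. All 3 members passed the filter, miR-10395-3p on the strength of its lysate libraries. Lysate levels chose the members, so nothing is read from these shares.

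**Figure D1:**
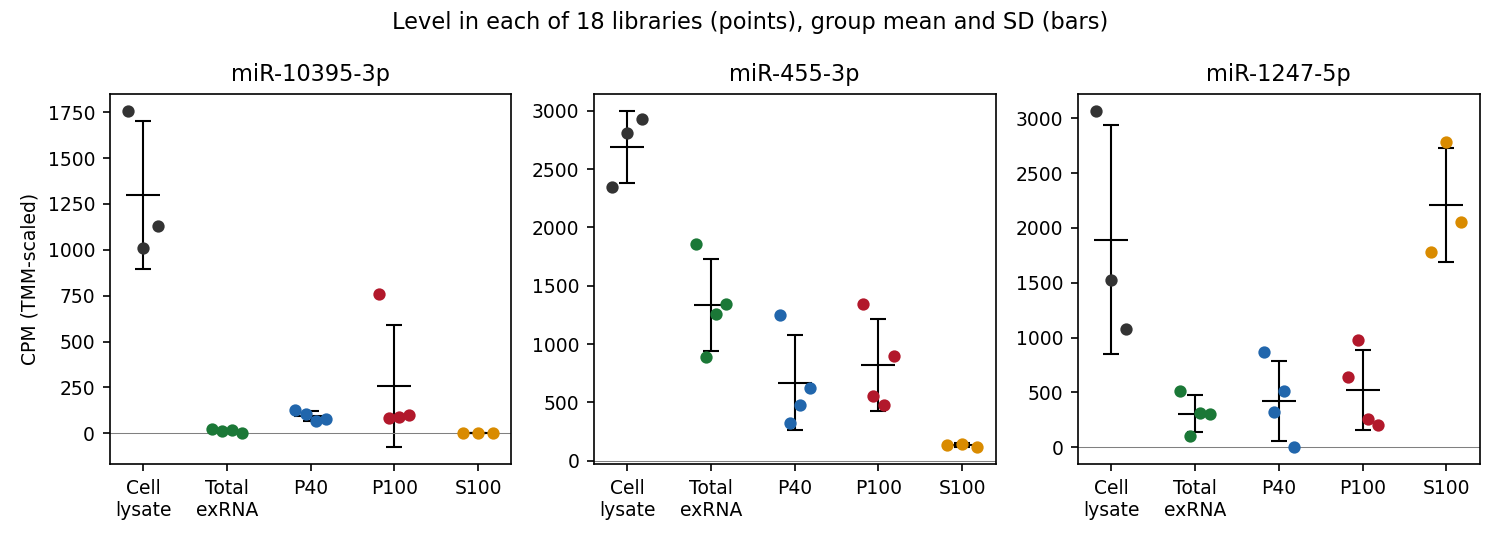
TMM-scaled CPM of miR-10395-3p, miR-455-3p and miR-1247-5p (vertical axes, linear) in each of 18 libraries (points) by group (horizontal axes), with the group mean and SD as black bars. miR-10395-3p reaches 1008 CPM or more in lysate only, miR-455-3p falls to 114 to 144 CPM in S100, and miR-1247-5p is high in both lysate and S100.

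**Figure D2:**
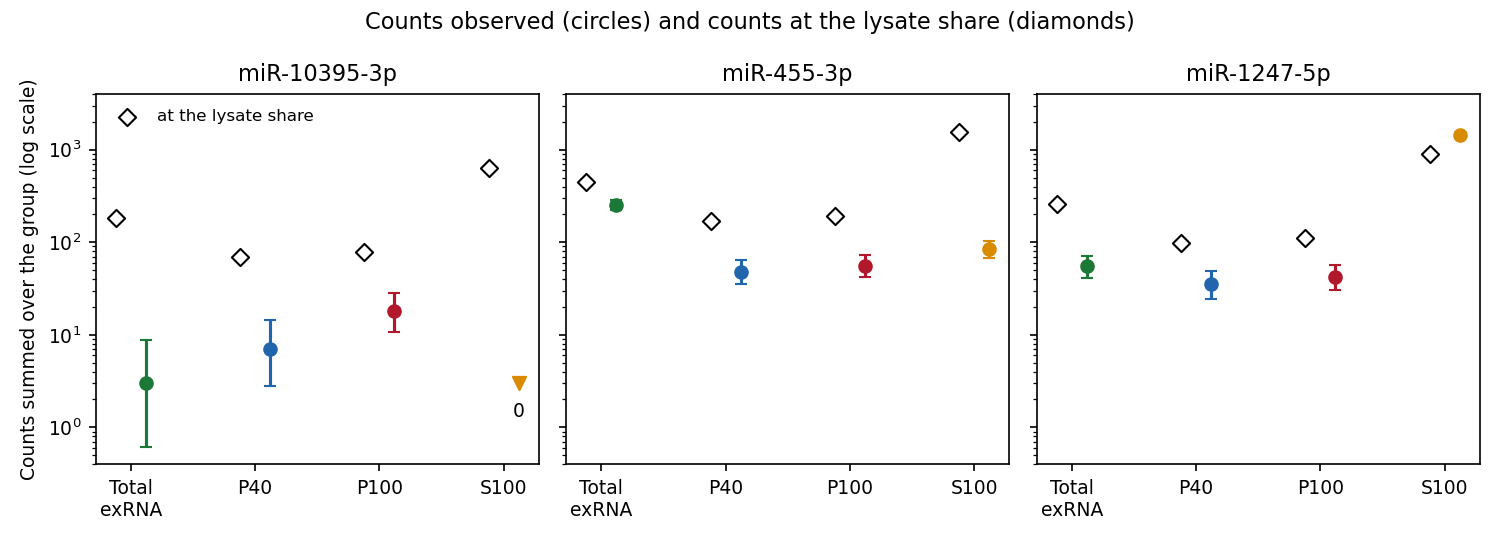
Counts summed over each extracellular group (circles, with exact 95% Poisson intervals, on a log scale) beside the counts the group would hold at the pooled lysate share (open diamonds). The triangle marks the floor of 3 counts where miR-10395-3p had 0 counts in S100, and miR-1247-5p in S100 is the only circle above its diamond.

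Whether the fractions of the medium differed from each other was tested by quasi-likelihood F tests in edgeR, and p was adjusted by Benjamini-Hochberg over the 227 miRNAs. A miRNA was called at an adjusted p below 0.05. miR-10395-3p was among the miRNAs tested only through its lysate libraries, and it did not pass the filter at equal depth or with only the groups compared, so its tests rest on few counts. Of 18 pairs of a member and a comparison, 16 held at least 10 counts over both groups, and 8 of these were called. Among the 8, 2 were of miR-10395-3p, and no conclusion is drawn from those. Over all 227 miRNAs the share called ran from 4.85% (P100 against P40) to 63.4% (S100 against total exRNA). The comparisons that share a group are not independent of each other.

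S100 set the members apart. On the log2 scale miR-455-3p differed in S100 from total exRNA by -3.32 ± 0.50 (SE; edgeR adjusted p = 6.5e-06), from P40 by -2.30 ± 0.50 (edgeR adjusted p = 0.000547) and from P100 by -2.59 ± 0.50 (edgeR adjusted p = 0.000164), lower each time. miR-1247-5p moved the other way and was higher in S100 than in total exRNA by 2.87 ± 0.63 (edgeR adjusted p = 0.000441), than in P40 by 2.33 ± 0.65 (edgeR adjusted p = 0.00441) and than in P100 by 2.03 ± 0.64 (edgeR adjusted p = 0.00893). In each of these comparisons the 3 S100 libraries lay outside the range of the other group. How many of the 227 miRNAs showed such a separation of S100 was not counted, so nothing is read from it here or above. Low extracellular levels chose both members, so the p-values of neither are independent of that choice. The S100 values of miR-455-3p were among those levels. So were the total exRNA, P40 and P100 values of miR-1247-5p, against which its S100 level was tested.

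Calls were common in the S100 comparisons. Of the 227 miRNAs 63.4% were called against total exRNA, 52.9% against P40 and 59.9% against P100, so a call there is not particular to these members. The median log2 fold change over all 227 was -0.34, -0.30 and -0.01 in these comparisons. Higher calls made up 29.5%, 25.1% and 28.6%, and lower calls 33.9%, 27.8% and 31.3%. S100 and total exRNA were prepared alike but differed in depth, and the opposite differences of miR-455-3p and miR-1247-5p were both called in that comparison. Both members were chosen on their extracellular levels, and the cause of these differences was not tested.

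miR-10395-3p had no count in S100, so its fold change there is a bound. Its share in P100 was at least 49.2-fold higher than in S100 (18 of 78348 counts against 0 of 642660; edgeR adjusted p = 4.72e-06). Without P100 replicate 1 the bound was 17.8-fold (5 of 60302 counts) and the edgeR adjusted p was 6.75e-05. Both bounds put S100 at 3 counts and take the P100 counts as exact, so counting error in P100 is left out. The filter kept miR-10395-3p through its lysate libraries alone, and lysate levels chose it, so no conclusion is drawn from either p. The pairs of S100 with P40 (7 counts in all) and with total exRNA (3 counts) held too few counts for a test here.

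Among the other 3 groups 1 of 9 pairs was called. For miR-10395-3p the P100 level exceeded that of total exRNA by 3.93 ± 0.87 on the log2 scale (SE; edgeR adjusted p = 0.00202), where 27.8% of miRNAs were called. This rested on P100 replicate 1, which held 13 of the 18 P100 counts. Without it the value was 2.43 and the edgeR adjusted p was 0.0562. Here too the filter kept miR-10395-3p through its lysate libraries alone, so no conclusion is drawn from these p-values. In the comparison of P40 with total exRNA, where 11.5% were called, the adjusted p of the members was 0.116 for miR-10395-3p (log2 fold change 2.48), 0.130 for miR-455-3p (-1.02) and 0.622 for miR-1247-5p (0.54) by edgeR.

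The 2 pellets were not told apart by these members. In P100 against P40, where 4.85% of miRNAs were called, none of the 3 was. The log2 fold change was 0.29 for miR-455-3p (95% interval -0.67 to 1.25), 0.30 for miR-1247-5p (-1.07 to 1.68) and 1.45 for miR-10395-3p (-0.20 to 3.10), the last falling to -0.056 without P100 replicate 1. These intervals leave room for differences of 2-fold in either direction for miR-1247-5p. The pellet libraries held 10017 to 27027 counts, and miR-1247-5p ran from 0 to 873 CPM in P40 and from 200.3 to 978 CPM in P100. The part of depth and of this spread in the intervals was not tested.

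**Figure D3:**
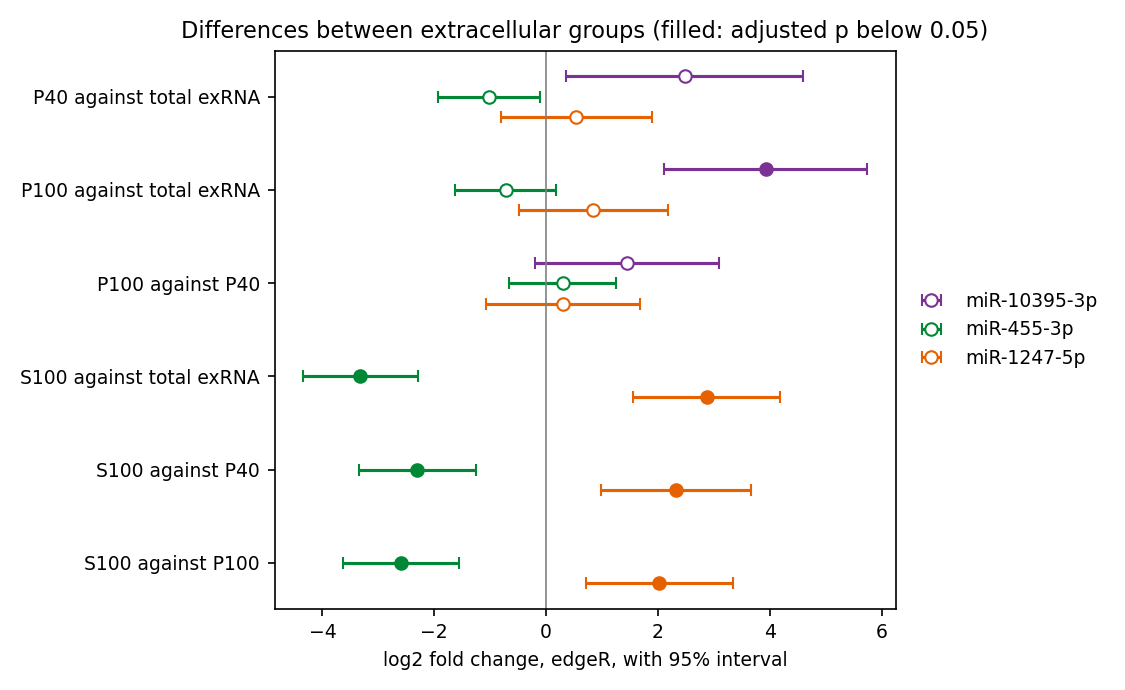
Log2 fold change between extracellular groups (horizontal axis) with its 95% interval from edgeR for each member, with filled points at an adjusted p below 0.05. miR-455-3p lies left of 0 and miR-1247-5p right of 0 in all 3 S100 comparisons; miR-10395-3p is not drawn there because S100 had 0 counts.

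The opposite arms of the hairpins were not part of the choice of members. miR-455-5p, the other strand of the miR-455 hairpin, is printed above with its own seed. It was low in lysate at 34.5, 183 and 111 CPM, and stood at 386, 73.1, 164 and 219 CPM in total exRNA, 561, 531, 137 and 78.1 CPM in P40, 351, 128, 216 and 100.2 CPM in P100, and 370, 296 and 409 CPM in S100. Its extracellular values thus lay around or above those of the cells, with all S100 libraries above all lysate libraries. The share of all miRNAs with S100 above lysate in this way was not counted.

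Against lysate, miR-455-5p was higher in S100 by a log2 fold change of 1.53 ± 0.65 (SE; edgeR adjusted p = 0.0459), in a comparison where 32.2% of miRNAs were higher and 62.1% were called in either direction. The mean of the 4 extracellular groups lay above lysate by 1.09 ± 0.57 without a call (edgeR adjusted p = 0.125), where 46.3% of miRNAs were called. The values were 0.72 for total exRNA, 1.39 for P40 and 0.72 for P100, with edgeR adjusted p of 0.428, 0.139 and 0.453, in comparisons where 35.2%, 26.9% and 37.4% of miRNAs were called. These comparisons share the lysate libraries. Between S100 and the other extracellular groups miR-455-5p was not called (lowest edgeR adjusted p = 0.243).

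The 2 strands of miR-455 therefore appeared in different proportions. The 3p arm made up 98.6%, 93.9% and 96.3% of the counts of both arms in the lysate libraries. It made up 82.8% to 92.4% in total exRNA, 68.8% to 90.0% in P100 and 37.5% to 88.9% in P40. In S100 it made up 27.0%, 32.7% and 21.8%, so the 5p arm led in all 3 libraries. P40 replicate 2, with 6 counts of the 3p arm and 10 of the 5p arm, was the only library outside S100 in which the 5p arm led.

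The log2 ratio of 3p to 5p counts was lower in S100 than in the 12 other extracellular libraries by a difference of -3.52 (means -1.44 ± 0.40, SD, n = 3, in S100 against 2.86 ± 0.57, n = 4, in total exRNA, 1.31 ± 1.56, n = 4, in P40 and 2.09 ± 0.84, n = 4, in P100). Against total exRNA alone, which was prepared like S100, the difference was -4.30. No p is given, since this comparison was added after the data were seen and low extracellular levels of the 3p arm chose the member. The 35 hairpins with both arms passing the filter were ranked on differences of log2 CPM (prior count 2) and not on count ratios. By that measure the shift of miR-455 between S100 and the other extracellular libraries was -3.16 and ranked 2nd by size. Of the 35, 5 changed their leading arm. The choice of the 3p arm enters this rank.

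**Figure D4:**
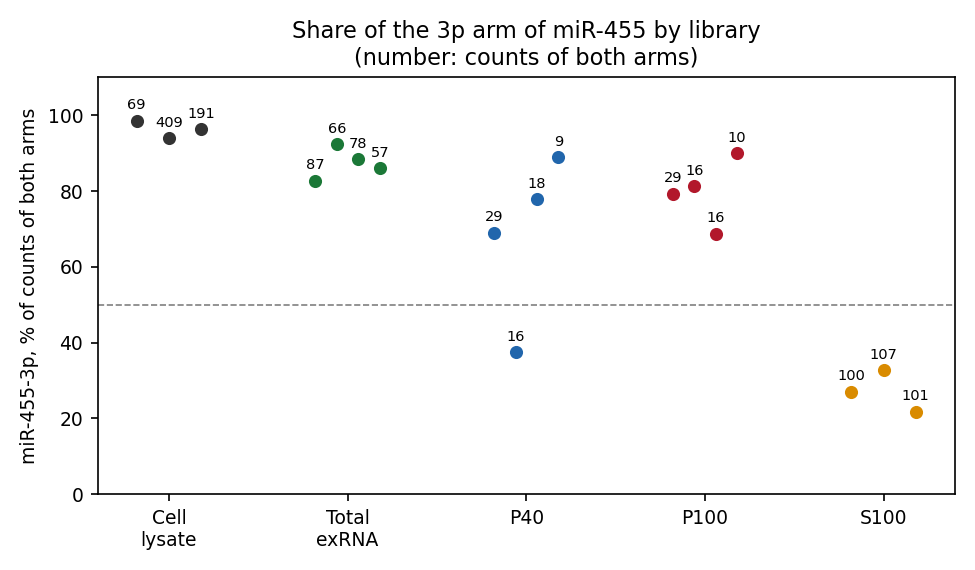
Share of miR-455-3p in the counts of both miR-455 arms (vertical axis, percent) for each library (points) by group, with the number of counts of both arms printed at each point and a dashed line at equal counts. The 3 S100 libraries lie at 21.8% to 32.7%, and lysate at 93.9% to 98.6%.

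The arms of miR-1247 also differed, although the 3p arm was sparse and did not pass the filter. miR-1247-3p had 3, 4 and 10 counts in the lysate libraries, 1 count in total exRNA replicate 1 and 0 in every other extracellular library. Its pooled share in lysate was 14.0 times that of S100 with S100 put at 3 counts (17 of 260500 counts against 0 of 642660). The 5p arm had 366 and 1426 counts in the same libraries, so in S100 the hairpin was seen through its 5p arm only. With the empty groups put at 3 counts, the lysate share of miR-1247-3p was 1.52 times that of P40 and 1.70 times that of P100. These values and that for S100 take the 17 lysate counts as exact, so their counting error is left out. miR-10395-5p had 0 counts in all 18 libraries.

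Other miRNAs of the DLK1-DIO3 domain did not accompany miR-1247-5p in the cells. Of 83 mature miRNAs of that domain taken as a list, 32 were found in at least 1 library and 0 passed the filter. They held 0 of 260500 lysate counts (a count of 0 allows a share of up to 0.00115%), where miR-1247-5p alone had 366 counts. In extracellular libraries they held 203 of 974687 counts, led by miR-127-3p with 59 and miR-369-3p with 25. The share was 0.0203% to 0.0649% in total exRNA, 0.00953% to 0.0690% in P40, 0.0185% to 0.0499% in P100 and 0.0105% to 0.0129% in S100. The 3 muscle markers held 24 lysate and 153 extracellular counts, all in lysate from miR-133a-3p, with miR-1-3p at 0 there and miR-206 at 0 in every library. The 2 nerve markers held 93 lysate and 130 extracellular counts, with miR-124-3p at 0 in lysate and miR-9-5p at 93. The part of other cell types in the counts of the domain was not tested.

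The miRBase entries numbered around miR-10395, taken as a sum, lay the other way from it. Of 21 mature names from miR-10392 to miR-10401 other than miR-10395-3p, 10 were found and 8 passed the filter. These passed through the extracellular libraries, where they are high, so no count of calls is given. All 21 names together held 0.0107% to 0.0325% of counts in lysate, 0.797% to 2.16% in total exRNA, 0.686% to 0.923% in P40, 1.89% to 2.66% in P100 and 0.148% to 0.301% in S100. Every extracellular library thus lay above every lysate library for this summed share. How many of all miRNAs showed that separation was not counted. The list was drawn up by entry number alone. miR-10396b-5p was the most abundant, and near-identical copies (miR-10396a and miR-10396b) make the split between them uncertain. Of the 8 names linked to cartilage or SOX9, 6 were found and 2 passed the filter, miR-455-5p and miR-101-3p. By edgeR neither was called in the extracellular mean against lysate, where 46.3% of all miRNAs were. The log2 fold change of miR-101-3p there was -0.43 ± 0.62 (SE, edgeR adjusted p = 0.619).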

How the data were processed

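Small RNA libraries (RealSeq-AC kit, single-end reads of 50 bases) were counted by the authors, who deposited 1 file of raw counts per mature miRNA for each library, without zero entries. cutadapt 1.16, FastQC, Bowtie2 and GRCh38 are named in the submitters' processing notes. The handling of multi-mapping reads and the miRNA annotation are not given in the sources used here.

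Absent names were taken as 0. Libraries with fewer than 100 miRNAs were left out, which left 18 of 19 (10017 to 225290 counts). filterByExpr (minimum count 10, minimum total 15) kept 227 miRNAs with 98.5% to 99.1% of a library's counts. 1 quasi-likelihood model of the 5 groups was fitted in R 4.3.3 with edgeR 4.0.16 and TMM, without a batch term; DESeq2 1.42.0 was an alternative. The SE is the log2 fold change divided by the root of F. A prior count of 2 entered log2 CPM. The fit was checked on simulated data in which miRNAs were changed in S100 only, so recovery of changes was not checked in the other contrasts.

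The members and lists were chosen with earlier results of these data known. Named miRNAs are the members, their opposite arms, up to 4 list members by mean level, the 3 most correlated with each member and the 10 highest by ratio of lysate to extracellular level. The arm ratio comparison was added after the data were seen. Replicate numbers equal the batch numbers in the labels and so pair samples; deviations from group means correlated at a mean of -0.03 over 32 same-numbered pairs and 0.01 over 97 others.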

Additional observations from a re-analysis of the deposited data

Results flagged for a closer look

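miR-10395-3p in P100 replicate 1 stood at 760 CPM, while the other 3 P100 libraries held 85.0 to 100.2 CPM, so that 1 sample lay far from the rest of its group. The same library held 13 counts where the others held 1 or 2. Levels of the 3 members, of miR-455-5p and of the miR-455 arm ratio were examined in this way in 3 groups of 4 libraries, 15 cases in all, and chance marks about 1 in 20.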

How the results depend on the processing

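The calls of miR-455-3p and miR-1247-5p in S100 against another extracellular group kept their direction and call under all 13 alternatives run for each. miR-10395-3p in S100 against P100 kept its call under the 11 alternatives run. It did not pass the filter at equal depth or with only the groups compared. No conclusion is drawn from that call, since its lysate libraries alone brought it through the filter. miR-10395-3p in P100 against total exRNA lost its call without P100 replicate 1 (2.43, range over single left-out libraries 2.43 to 4.26). DESeq2 called miR-455-3p lower in P40 than in total exRNA (-1.17) and miR-455-5p higher in the extracellular mean (1.38). miR-455-3p in P40 against total exRNA was also called without P40 replicate 1 (left-out range -1.52 to -0.80). Uncalled values changed sign for miR-455-5p in S100 against P40 with library size only (-0.0093, from 0.14) and for miR-1247-5p in P40 against total exRNA at equal depth (-0.40, from 0.54). With single libraries left out the ranges crossed 0 in P100 against P40 for miR-10395-3p (-0.056 to 1.79), miR-455-3p (-0.085 to 0.78) and miR-1247-5p (-0.21 to 0.81), and in P100 against total exRNA for miR-455-5p (-0.39 to 0.48). The log2 ratio of lysate to S100 level ranged from 3.91 to 4.06 for miR-455-3p (4.36 with all libraries) and from -1.15 to -0.32 for miR-1247-5p (-0.22 with all), when 1 lysate library was left out; the lowest was without lysate replicate 3 for miR-455-3p and without replicate 1 for miR-1247-5p. With library size only, 1 member in place of 2 had every lysate library above every extracellular one. The miR-455 arm difference ranged from -3.78 to -3.32 without 1 library. These last 2 alternatives were chosen after seeing the data. The causes of these changes were not tested. The replicate block changed no call of a member or of miR-455-5p (S100 against total exRNA 3.23 for miR-1247-5p and -3.08 for miR-455-3p). At equal depth miR-10395-3p and miR-455-5p did not pass the filter, so they have no value there.

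Other scalings moved the median of all miRNAs by -0.21 to 0.33 (library size only) and by -0.19 to 0.70 (no filter, the last in S100 against lysate), by -0.11 to 0.43 (DESeq2), by -0.08 to 0.35 (only the groups compared) and by -0.60 to 0.27 (equal depth). Call counts moved by over 1.5 times at equal depth for the extracellular mean against lysate (56, from 105), total exRNA, P40, P100 and S100 against lysate (42, from 80; 35, from 61; 47, from 85; 87, from 141), P100 against P40 (7, from 11) and S100 against P100 (90, from 136). P40 against total exRNA gave 26, but 17 without the filter, 44 with DESeq2, 14 with only those groups and 17 to 42 without 1 library. P100 against P40 gave 21 with library size only, 17 with DESeq2 and 3 to 12 without 1 library, and P40 against lysate 27 with only those groups. In P100 replicate 4 a single count is 100.2 CPM, which limits the precision of low levels there.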

Other observations

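Among the 18 miRNAs whose lysate libraries all lay above all extracellular libraries, miR-10395-3p had the largest ratio of lysate mean to the mean of the 4 extracellular groups (14.2, or 26.0 without P100 replicate 1). It was followed by miR-194-3p (7.48), the 3p strand of a gut epithelial hairpin, miR-1260b (6.13), miR-25-5p (4.92), miR-103a-3p (4.62), miR-200a-5p (4.57), miR-107 (4.49), miR-200b-5p (4.07), miR-424-3p (3.73) and miR-455-3p (3.65). These ratios describe the selection and carry no test.

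The patterns most like each member over the 18 libraries, by Pearson correlation of log2 CPM, were those of miR-194-3p (0.91), miR-92a-3p (0.87) and miR-25-3p (0.79) for miR-10395-3p, and for miR-455-3p those of miR-4454 (0.88), miR-200c-3p (0.89) and miR-103a-3p (0.89). For miR-1247-5p they were miR-92b-3p (0.80), miR-505-3p (0.75) and miR-138-5p (0.71). miR-92b-3p had a mean of 3312 CPM in lysate, 878 in total exRNA, 1286 in P40, 1767 in P100 and 2678 in S100, a low middle between lysate and S100 like that of miR-1247-5p. The members correlated with each other at 0.67 (miR-10395-3p and miR-455-3p), 0.22 (miR-10395-3p and miR-1247-5p) and -0.10 (miR-455-3p and miR-1247-5p). All points share the 5 groups and the depth of their libraries, so these values are descriptions.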
